A study of Mus musculus with 89 samples.

Results

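Expression of 10 acute phase genes outside the serum amyloid family was measured in mouse lung after exposure to copper oxide nanomaterials. The genes were Orm1, Orm2, Lcn2, Hp, Hpx, Serpina3n, Itih4, Lrg1, Cp and Ptx3, which were 10 of the 22911 genes on the array. They were found by taking every non-control probe whose transcript identifier belonged to one of these symbols, which gave 15 probes. Cp had 4 probes, Lcn2 and Itih4 had 2 each, and the other members had 1 each.

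The animals were female BALB/c mice of 6-8 weeks, and every group, controls included, had been sensitised with OVA/Alum. They were then challenged through the airways with PBS or with ovalbumin (OVA), the latter being the allergen of this asthma model. Exposure was by oropharyngeal aspiration on 4 consecutive days to core CuO, to its carboxylated form (CuO COOH), to its methylaminated form (CuO NH3) or to its PEGylated form (CuO PEG), each at 2.5, 10 or 40 μg/day as the sample descriptions give it. Lungs were lavaged 24 h after the last exposure, RNA came from a piece of the left lobe taken after this lavage, and each array sample was a pool of 2 RNA samples, so that 1 sample stands for a pair of mice. The 26 groups held 89 samples: 7 PBS controls, 8 OVA controls, 4 samples each of PBS-challenged CuO NH3 10 and CuO PEG 10, and 3 in every other group. Core CuO and CuO COOH lay on slides 1 to 3 and CuO NH3 and CuO PEG on slides 4 to 6, while controls lay on both sets.

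Acute phase proteins are secreted defence proteins whose production rises quickly after injury or infection, mainly in the liver and also in tissues such as the lung. Interleukin-6 acting through STAT3, and interleukin-1 acting through NF-κB and C/EBP factors, are the classical inducers. The proteins carry out different tasks. ORM1 and ORM2 bind small molecules and modulate immunity, LCN2 withholds iron from bacteria by binding siderophores, HP and HPX capture free haemoglobin and haem, and CP is a copper-carrying ferroxidase. SERPINA3N inhibits serine proteases, ITIH4 belongs to the inter-alpha-trypsin inhibitor heavy chains, LRG1 is a leucine-rich glycoprotein linked to TGF-β signalling in vessels, and PTX3 is a pattern-recognition pentraxin made locally by myeloid and stromal cells.

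Values are given as log2 levels, that is log2 fluorescence after quantile normalisation, with dye, slide and array position removed for display. A level cannot be set against the level of another gene. A change was called at an adjusted p below 0.05 (limma, Benjamini-Hochberg over all 22851 genes tested) and an absolute log2 fold change above 0.58. The share of all genes called in the same direction is printed beside each count of members. Because bulk lavaged lung tissue was measured, more cells of a type and more RNA per cell cannot be told apart. The probes of Lcn2, Hp, Serpina3n, Itih4, Lrg1 and Cp were well above background in 89 of 89 samples, that of Hpx in 88, that of Orm1 in 87, that of Orm2 in 84 and that of Ptx3 in only 58, and no member probe was saturated. All 6 lung epithelium markers, among them the surfactant gene Sftpc, were well above background in 89 of 89 samples. Of 8 hepatocyte markers, Alb was so in 12 samples, Ttr in 3 and Apoc3 in 61, whereas Fabp1 was in 86, Ahsg in 88, and Apoa2, Serpina1c and Cyp2e1 in 89.

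The sequence ahead of the transcript start is shown for 4 members, Orm2, Lcn2, Serpina3n and Itih4. All 4 were called higher after CuO 2.5 in PBS-challenged mice, and Lcn2 and Serpina3n were also called for OVA challenge. In PBS-challenged mice Serpina3n was called between doses for all 4 materials, and Itih4 had its highest group mean at an intermediate dose. The sequences come from RefSeq on GRCm38.p6 and are written 5′ to 3′ in the direction of transcription. They lie at chr4:63362199-63362448, plus strand, at chr2:32387740-32387989, minus strand, at chr12:104406458-104406645, plus strand, and at chr14:30886226-30886475, plus strand. Capitals mark matches to TTNNGNAA, a loose C/EBP-like motif, in the sequences of Orm2, Lcn2 and Serpina3n, and a match to TTCNNNGAA, the spaced STAT half-sites, in that of Itih4, each searched on both strands. Each holds the 250 bases ahead of the start, except that of Serpina3n, which stops at 188 bases where the annotated gene begins ahead of the transcript start used.
Orm2: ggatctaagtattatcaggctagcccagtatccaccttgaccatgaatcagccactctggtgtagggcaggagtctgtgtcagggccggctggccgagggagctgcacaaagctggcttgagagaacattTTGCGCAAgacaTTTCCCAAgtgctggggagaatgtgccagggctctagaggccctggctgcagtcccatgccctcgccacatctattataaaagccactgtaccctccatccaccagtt
Lcn2: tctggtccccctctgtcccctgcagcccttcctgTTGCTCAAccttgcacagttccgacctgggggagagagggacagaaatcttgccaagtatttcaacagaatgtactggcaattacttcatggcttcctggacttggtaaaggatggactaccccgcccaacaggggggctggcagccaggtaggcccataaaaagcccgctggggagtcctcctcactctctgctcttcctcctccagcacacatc
Serpina3n: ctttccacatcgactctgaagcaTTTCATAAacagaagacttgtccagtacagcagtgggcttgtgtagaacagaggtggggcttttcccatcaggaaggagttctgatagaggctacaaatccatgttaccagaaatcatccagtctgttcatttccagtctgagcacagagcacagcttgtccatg
Itih4: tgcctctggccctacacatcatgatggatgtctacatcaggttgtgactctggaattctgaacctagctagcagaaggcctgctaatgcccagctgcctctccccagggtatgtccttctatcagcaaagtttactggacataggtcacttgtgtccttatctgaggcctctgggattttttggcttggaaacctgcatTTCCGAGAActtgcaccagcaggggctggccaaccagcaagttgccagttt
Promoter sequence was matched for 8 of the 10 members, not for Orm1 and Hp. TTNNGNAA was found in 6 of the 8, namely Orm2, Lcn2, Hpx, Serpina3n, Cp and Ptx3, and in 36.8% of 32807 promoters of the same length. Orm2 held it at 120 and 108 bases ahead of the start, and Serpina3n at 227 and, inside the annotated gene, at 56. TTCNNNGAA was found only in Itih4, at 51 bases ahead of the start, and in 7.02% of all promoters. An NF-κB consensus was found in 0 of 8, against 3.9% of all promoters. No motif overlapped another, and these matches describe the letters only.

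Orm1 and Orm2 are neighbours on chromosome 4 (63344556 to 63348163 and 63362449 to 63365877 on GRCm38.p6) and near-identical copies, and whether their probes bind transcripts of both was not tested. Lcn2 lies on chromosome 2 (32384637 to 32387739), Serpina3n on chromosome 12 (104406646 to 104414334), Itih4 on chromosome 14 (30886476 to 30901986), Lrg1 on chromosome 17 (56119678 to 56121946), Hpx on chromosome 7 (105591611 to 105600116), and Cp and Ptx3 on chromosome 3 (19956933 to 20009750 and 66219887 to 66225806).

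After OVA challenge alone Serpina3n, Lcn2 and Lrg1 were higher, and the other members were not called. The comparison of the 8 OVA controls with the 7 PBS controls asks what allergic inflammation does without any particle. It called 3 of 10 members higher, against 3.72% of all genes. The serpin Serpina3n had log2 levels of 8.42, 8.91 and 9.33 (lowest, median and highest) in PBS controls and of 10.93, 11.52 and 12.07 in OVA controls, with no overlap. Its log2 fold change was 2.25 ± 0.26 (SE), a 4.77-fold rise (adjusted p = 1.55e-06). The siderophore binder Lcn2 ranged from 11.90 to 13.00 (median 12.45) in PBS controls and from 13.51 to 13.98 (median 13.68) in OVA controls, a 2.66-fold rise (log2 fold change 1.41 ± 0.33, adjusted p = 0.00458). Lrg1 ranged from 11.92 to 12.74 and from 13.05 to 13.57, and rose 2.09-fold (1.06 ± 0.23, adjusted p = 0.00327). In each of these 3 genes all OVA controls lay above all PBS controls. The same was seen for Cp, whose log2 fold change of 0.35 (adjusted p = 0.0308) was under the fold limit. Orm1 (0.54), Itih4 (0.28), Ptx3 (0.35), Orm2 (0.26), Hpx (0.09) and Hp (-0.11) overlapped between the groups and were not called. Leaving out PBS control replicate 2, or OVA control replicate 3 on the same array, ended the calls of Lcn2 (adjusted p = 0.0984) and Lrg1 (adjusted p = 0.0511) but not that of Serpina3n. The macrophage and monocyte markers moved with this challenge: 4 of 6 were called higher, and their summed intensity ranged from 52510 to 66650 in PBS controls and from 110200 to 261700 in OVA controls. Of 11 neutrophil markers 1 was called higher, and their sum was 69270 to 91850 in PBS controls and 54700 to 68800 in OVA controls. Such sums follow their brightest genes and do not measure cell number. Chil3 had a mean log2 level of 13.34 in PBS controls and 16.92 in OVA controls, whereas Ly6c2 had 15.42 and 15.20. The brightest neutrophil markers were Csf3r (15.47 and 15.11) and S100a9 (14.34 and 13.64). S100a8 (12.57 and 12.06), Camp (7.15 and 7.08) and Elane (8.94 and 8.86) were also lower in OVA controls by mean level. Retnlg (11.26 and 12.77), Ltf (10.31 and 11.42), Mmp8 (7.25 and 7.60) and Cxcr2 (7.67 and 7.94) were higher. So were, by less, Mpo (6.23 and 6.40) and Ngp (5.85 and 5.91), so that the list was split. The part of either cell type in the 3 calls was not tested. On each of the 6 slides taken alone the 3 genes were higher in OVA controls, Serpina3n by 2.31 to 3.19 on the log2 scale.

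**Figure D1:**
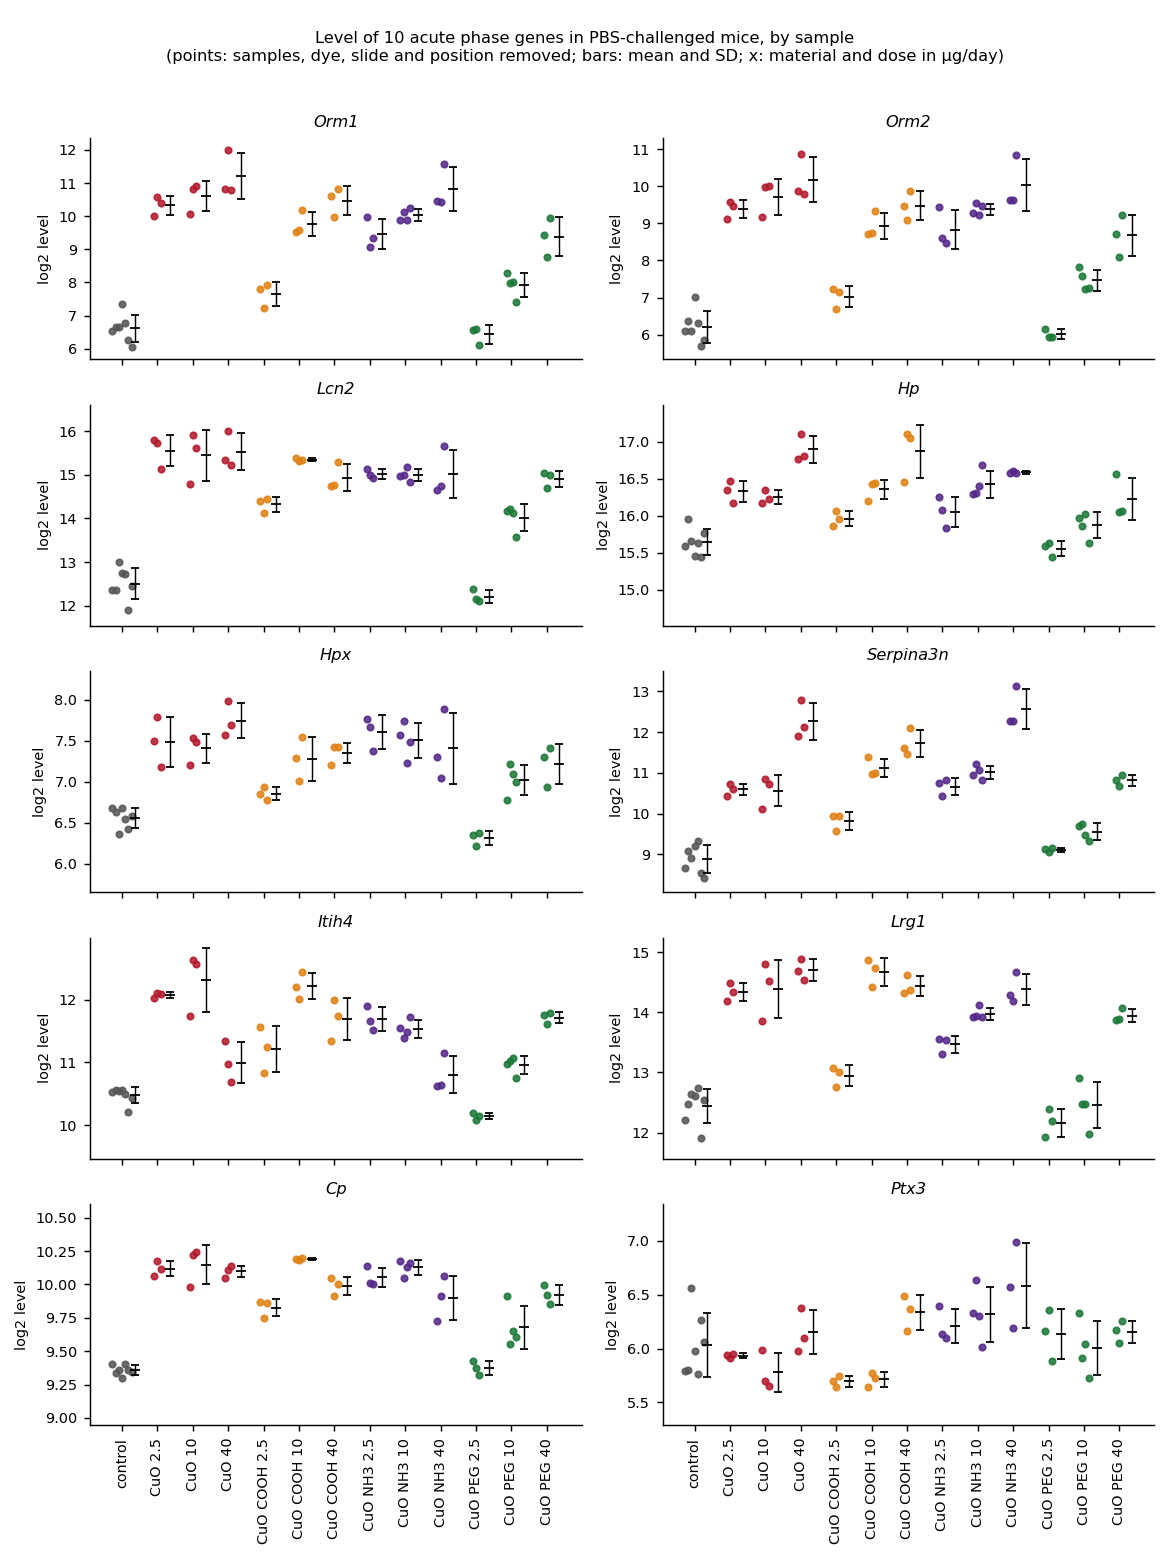
Log2 levels of the 10 members in PBS-challenged mice, 1 panel per gene, with 1 point per sample, the mean and SD beside the points, and material and dose on the horizontal axis. Orm1 lies between 6.04 and 7.34 in controls and between 10.78 and 12.00 after CuO 40, whereas the 3 samples of CuO PEG 2.5 lie between 6.11 and 6.61.

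In PBS-challenged mice most members were higher after exposure, and they were called from 2.5 upwards after CuO and CuO NH3, from 10 after CuO COOH and mainly at 40 after CuO PEG. Each of the 12 exposed groups was compared with the 7 PBS controls, with dye and array in the model. After CuO, 8 members were called higher at 2.5 (0.814% of all genes), 9 at 10 (2.47%) and 8 at 40 (7.81%). After CuO COOH the counts were 0 (0.337%), 8 (2.49%) and 10 (5.96%). After CuO NH3 they were 4 (0.823%), 8 (2.57%) and 8 (7.35%). After CuO PEG they were 0 (0%), 1 (0.398%) and 8 (1.67%). No member was called lower in any of the 12 comparisons. In total 72 of 120 pairs of gene and comparison were called, against 2.72% of such pairs over all genes, and 98 had an unadjusted p below 0.05. At CuO COOH 2.5, 8 of 10 members had such a p, against 1519 of 22851 genes. Their median log2 fold change over the 10 members was 1.01. At CuO PEG 10 it was also 8 of 10, against 2348 of 22851 genes, with a median of 0.46. A missing call in these groups is thus not a missing change. All 12 comparisons use the same controls. Of the 3 samples of CuO COOH 2.5, replicate 2 was alone on its array and carried no information here. Within slides, 70 of the 72 calls had the same direction on every slide that held both groups, the exceptions being Ptx3 after CuO COOH 40 and after CuO NH3 40.

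The α1-acid glycoprotein genes Orm1 and Orm2 rose most. Orm1 had a mean level of 6.61 ± 0.41 (SD, n = 7) in PBS controls, and the 3 samples of CuO 40 had 10.82, 12.00 and 10.78. That was a log2 fold change of 6.06 ± 0.71, or 66.7-fold (adjusted p = 2.28e-06). Already at CuO 2.5, with 10.00, 10.58 and 10.39, Orm1 was 17.3-fold above control (adjusted p = 0.00127). The rise at 40 was 40.5-fold after CuO COOH, 20.0-fold after CuO NH3 and 10.2-fold after CuO PEG, and in all 4 groups every sample lay above every control. The order of CuO COOH and CuO NH3 depended on the model. With slide and position removed, the mean level was 10.47 after CuO COOH 40 and 10.82 after CuO NH3 40. Orm2 gave 9.87, 10.88 and 9.79 after CuO 40 against 5.69 to 7.01 (median 6.11) in controls, a 41.4-fold rise (5.37 ± 0.68, adjusted p = 5.9e-06). Over the 26 group means the 2 genes ran together (Pearson r = 0.995). Both were called in 9 of 12 comparisons, the exceptions being CuO COOH 2.5, CuO PEG 2.5 and CuO PEG 10. With slide and position in place of array in the model, Orm1 after CuO 40 was 4.59 on the log2 scale. Without CuO 40 replicate 2, the highest sample, Orm1 was still called (5.34, adjusted p = 0.0465), while Orm2 (adjusted p = 0.051), Hpx (0.231) and Cp (0.0699) were not.

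Lcn2, the iron-withholding lipocalin, was called in 10 of 12 comparisons, more than any other member. Its 3 samples had 15.80, 15.72 and 15.14 at CuO 2.5, 14.80, 15.91 and 15.62 at CuO 10, and 15.35, 16.01 and 15.23 at CuO 40, all above the control range of 11.90 to 13.00. The corresponding rises were 12.3-fold (adjusted p = 0.00051), 16.3-fold (0.000158) and 16.0-fold (1.4e-05). The difference between CuO 40 and CuO 2.5 was 0.38 ± 0.62 and was not called (adjusted p = 0.841). After CuO NH3 the log2 fold changes of Lcn2 were 2.40, 2.42 and 2.49 with rising dose, and the difference between 40 and 2.5 was 0.09 (95% interval -0.72 to 0.90). After CuO PEG Lcn2 had 14.18, 14.21, 14.12 and 13.58 at 10 and 15.04, 14.69 and 14.99 at 40. Lcn2 was the only member called at CuO PEG 10 (3.12-fold, adjusted p = 0.00251). Both Lcn2 probes moved alike, by 4.39 ± 0.56 and 3.60 ± 0.49 after CuO 40.

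The haem and haemoglobin scavengers had smaller changes, and the size of their change depended on the model. Hp had 16.77, 17.11 and 16.81 after CuO 40 against 15.44 to 15.96 (median 15.63) in controls. The model with array gave 2.60 ± 0.24 (6.06-fold, adjusted p = 1.29e-07), and the model with slide and position gave 1.25 (adjusted p = 3.04e-06). The displayed levels follow the latter. At CuO 10 the pair of values was 1.90 and 0.61, and the second was not called (adjusted p = 0.0599). Of the 8 comparisons that called Hp, 6 gave a value over 1.5 times larger with array than with slide, and of the 72 calls in all 12 did. Hpx was called in 5 of 12 comparisons, with 7.56, 7.98 and 7.69 after CuO 40 against 6.36 to 6.68 in controls (1.82 ± 0.40, 3.53-fold, adjusted p = 0.00221; 1.19 with slide).

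Of the protease inhibitors, Serpina3n was called after CuO at 2.5 (log2 fold change 1.75), at 10 (2.37) and at 40. Itih4 was called at 2.5 and 10 but not at 40. Serpina3n went from 10.44, 10.73 and 10.60 at CuO 2.5 to 11.91, 12.78 and 12.11 at CuO 40. These groups did not overlap, and the rise from 2.5 to 40 was 4.33-fold (2.11 ± 0.49, adjusted p = 0.0141). Against control, CuO 40 gave 14.6-fold (3.87 ± 0.43, adjusted p = 1.34e-06), CuO COOH 40 10.0-fold, CuO NH3 40 9.78-fold and CuO PEG 40 3.21-fold. With slide and position removed, the mean level was 12.27 after CuO 40 and 12.57 after CuO NH3 40, the other order. Itih4 had 12.03, 12.11 and 12.09 at CuO 2.5, 11.73, 12.64 and 12.58 at CuO 10, and 11.33, 10.97 and 10.69 at CuO 40, against 10.20 to 10.56 in controls. It was called at CuO 2.5 (1.67 ± 0.35, 3.18-fold, adjusted p = 0.0175) and at CuO 10 (2.06 ± 0.41, 4.17-fold, adjusted p = 0.00425). At CuO 40 its samples still lay above all controls, but the change of 0.88 ± 0.39 was not called (adjusted p = 0.144). The difference between CuO 40 and CuO 2.5 was -0.79 ± 0.45 and was not called either (adjusted p = 0.405), although all samples at 40 lay below all samples at 2.5. After CuO NH3 Itih4 was 2.15-fold, 1.87-fold and 1.25-fold above control with rising dose, none of them called. After CuO PEG the log2 fold changes were -0.13, 0.45 and 1.43, of which the last was called (adjusted p = 0.0159). Its 2 probes gave 0.85 and 0.91 after CuO 40.

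Lrg1 was called in 8 of 12 comparisons. It had 14.69, 14.89 and 14.53 after CuO 40 against 11.92 to 12.74 in controls, an 8.55-fold rise (3.10 ± 0.39, adjusted p = 5.9e-06). CuO COOH 10, with 14.88, 14.42 and 14.73, gave 10.0-fold. CuO PEG 10 gave 0.13 (adjusted p = 0.902), and its samples overlapped the controls.

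The copper ferroxidase gene Cp was called in 8 of 12 comparisons, but its 4 probes disagreed. After CuO 40 the probe A_55_P2111302 rose by 2.41 ± 0.30 and A_55_P2626135 by 2.29 ± 0.29 on the log2 scale (adjusted p over probes = 3.09e-06 and 3.61e-06). The probe A_55_P2087607 gave -0.01 (0.996), and A_52_P597002 fell by 0.77 ± 0.25 (0.0424). The value for the gene, 0.98 ± 0.18 (1.97-fold, adjusted p = 0.000409), is the mean of these and is smaller than that of the former pair. The former pair was designed on 1 Cp transcript record and the latter on others.

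**Figure D2:**
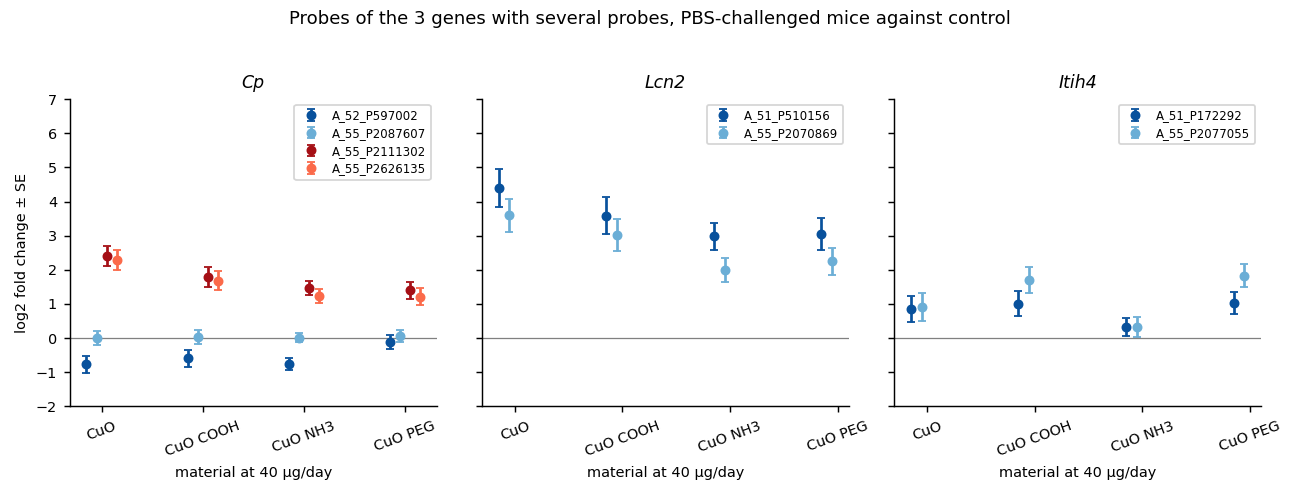
Log2 fold change (± SE) of every probe of Cp, Lcn2 and Itih4 after 40 of each material in PBS-challenged mice against PBS controls. Cp has 2 probes at 2.41 and 2.29 after CuO and 2 at -0.01 and -0.77, whereas both Lcn2 probes and both Itih4 probes lie on the same side of 0.

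Ptx3, the locally made pentraxin, was called in the fewest comparisons. Its probe was well above background in 58 of 89 samples and in 0 of 3 samples of CuO PEG 40. Levels were 5.77 to 6.56 (median 5.98) in PBS controls, 5.98, 6.38 and 6.10 for CuO 40, 6.48, 6.16 and 6.36 for CuO COOH 40, and 6.57, 6.20 and 6.99 for CuO NH3 40. All of these ranges overlapped. The model with array called CuO COOH 40 (0.90 ± 0.27, adjusted p = 0.0311) and CuO NH3 40 (0.76 ± 0.20, adjusted p = 0.00596). With slide neither was called, the former standing at 0.30 (adjusted p = 0.242). Both calls were also lost with normexp background correction and with scaling to the 75th percentile.

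Of the 72 calls in PBS-challenged mice, 35 were kept whichever single sample was left out. Replicate 4 of CuO NH3 10 carried 7 of its 8 calls, with Orm1 at 2.32 (adjusted p = 0.0769) without it and only Serpina3n kept (2.11, adjusted p = 0.00983). All 4 calls at CuO NH3 2.5 were lost without its replicate 2 (Orm1 2.75, adjusted p = 0.0555), and 3 of them, all but Lcn2, without its replicate 1. Replicate 3 of CuO COOH 10 carried 6 of its 8, with Orm1 at 3.32 (adjusted p = 0.144) without it.

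Between the lowest and the highest dose most members were called for CuO PEG. In PBS-challenged mice 7 members were higher at CuO PEG 40 than at CuO PEG 2.5 (2.63% of all genes), with Orm1 at 4.02 ± 0.65 (16.2-fold, adjusted p = 0.000511), Orm2 at 3.79, Lcn2 at 2.92, Serpina3n at 2.25, Lrg1 at 1.97, Itih4 at 1.56 and Cp at 0.69. Orm1 went from 6.58, 6.61 and 6.11 through 8.30, 7.97, 8.02 and 7.40 to 9.42, 8.77 and 9.94, with no overlap between doses. All 7 calls were lost without CuO PEG 2.5 replicate 3, where Orm1 was 3.48 (adjusted p = 0.157). CuO gave 2 calls, Hp (1.40) and Serpina3n (2.11), against 2.55% of all genes. CuO COOH gave the same 2, Hp (1.62) and Serpina3n (2.15), against 0.709%, and CuO NH3 gave 1, Serpina3n (1.93), against 4.03%. Serpina3n was the only member called for all 4 materials, but none of the 12 dose calls in PBS-challenged mice was kept in every fit that left out 1 sample. The Serpina3n call was lost for CuO without CuO 40 replicate 2 (adjusted p = 0.274) or CuO 2.5 replicate 3 (0.157), and for CuO NH3 without replicate 3 of either dose (0.128 in both cases, which share an array). For CuO COOH it was lost in 5 of 6 such fits (highest adjusted p = 0.681, without CuO COOH 2.5 replicate 1), after normexp background correction, with scaling to the 75th percentile and with loess and Aquantile. The Hp calls for CuO and for CuO COOH were also lost with this scaling and with loess and Aquantile. That for CuO was further lost with slide and position in place of array. Orm1 differed between CuO 40 and CuO 2.5 by 1.95 ± 0.80 and was not called (adjusted p = 0.203). Whether the dose effect differed between materials was not tested.

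**Figure D3:**
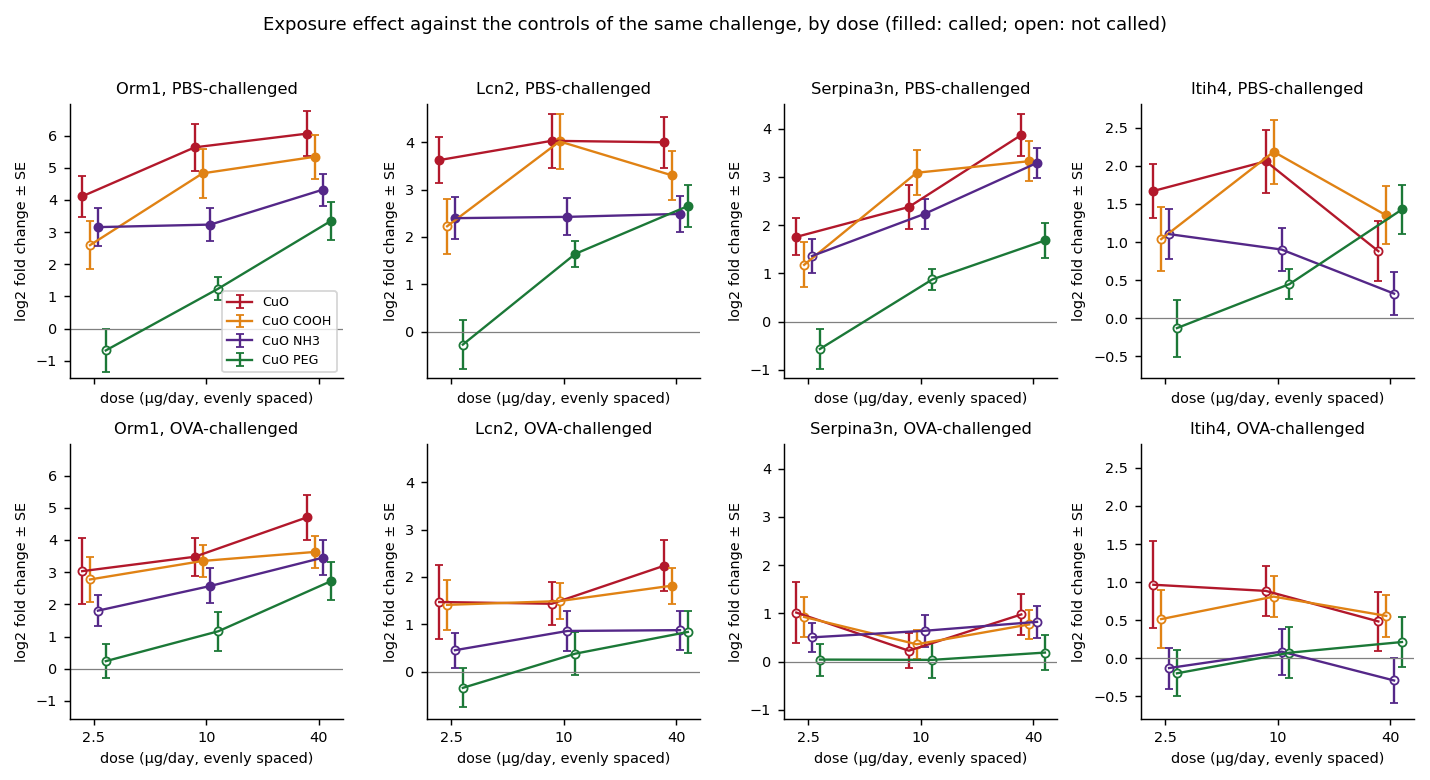
Log2 fold change (± SE) against the controls of the same challenge at each dose (2.5, 10 and 40 μg/day, evenly spaced) for Orm1, Lcn2, Serpina3n and Itih4, with PBS-challenged mice above and OVA-challenged mice below, 1 line per material and filled points for called changes. In PBS-challenged mice Orm1 starts at 4.11 for CuO and at -0.67 for CuO PEG, and Itih4 after CuO stands at 2.06 at 10 and at 0.88 at 40.

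After CuO PEG most members were lower than after core CuO at 2.5, and fewer were called at 10 and 40. The 3 modified materials were set against core CuO at each dose, with dye, slide and position in the model, 9 comparisons in each challenge. The study dosed by mass of the whole material, and it measured less copper in the coated forms than in core CuO, least in CuO PEG. Coating and amount of copper therefore cannot be told apart in these comparisons. At 2.5 in PBS-challenged mice, 8 of 10 members were lower after CuO PEG (1.43% of all genes). Orm1, with 6.58, 6.61 and 6.11 after CuO PEG and 10.00, 10.58 and 10.39 after CuO, differed by -3.89 (95% interval -4.94 to -2.84, adjusted p = 3.42e-06). Lcn2 differed by -3.34 (-4.15 to -2.53), Orm2 by -3.37, Lrg1 by -2.17, Itih4 by -1.93, Serpina3n by -1.48, Hpx by -1.17 and Cp by -0.74. Hp (-0.78, adjusted p = 0.141) and Ptx3 (0.20) were not called. At 10, 5 members were lower (0.888%), namely Orm1 (-2.68), Orm2 (-2.25), Lrg1 (-1.93), Lcn2 (-1.42) and Itih4 (-1.36). At 40, 3 were lower (2.37%), namely Orm1 (-1.82, -2.81 to -0.83), Orm2 (-1.50) and Serpina3n (-1.45), and 1 was higher (2.01%), namely Itih4 (0.72, 0.24 to 1.20). Itih4 had 11.75, 11.62 and 11.78 after CuO PEG 40 and 11.33, 10.97 and 10.69 after CuO 40, with no overlap. The 4 calls at 40 were all lost without CuO 40 replicate 2, where Orm1 was -1.31 (adjusted p = 0.147). With array in place of slide and position, the calls of Hpx at 2.5 and of Lcn2 and Itih4 at 10 were lost. So were those of Orm1, Orm2 and Itih4 at 40, while that of Serpina3n at 40 was kept. The call of Lcn2 at 10 was also lost in 4 of 7 fits that left out 1 sample of either group.

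The carboxylated form was called against core CuO at 2.5 only, where 4 members were lower (0.144%). Orm1, with 7.80, 7.23 and 7.92, differed by -2.67 (-3.51 to -1.84, adjusted p = 0.000353), Orm2 by -2.36, Lrg1 by -1.39 and Itih4 by -0.86. Without CuO COOH 2.5 replicate 2 the calls of Orm2, Lrg1 and Itih4 were lost (adjusted p = 0.102, 0.102 and 0.357), and that of Itih4 was lost in 5 of 6 fits that left out 1 sample of these groups. With array in place of slide and position all 4 calls were lost, and Orm1 was -1.52. At 10 (0.00438% of all genes lower) and 40 (0.0438%) no member was called, and Orm1 at 40 differed by -0.74 (-1.56 to 0.09). The methylaminated form gave no call at 2.5 (0%), 10 (0.109%) or 40 (0.0875%). Its differences from CuO at 40 were -0.38 (-1.39 to 0.63) for Orm1, -0.51 (-1.29 to 0.26) for Lcn2 and 0.30 (-0.39 to 0.99) for Serpina3n and each of these intervals reached past the fold limit. CuO NH3 and CuO PEG lay on other slides than CuO, so that these comparisons run between slides through the controls on both sets. In OVA-challenged mice 0 of 90 differences from core CuO were called by limma, against 0.122% of such pairs over all genes, and 9 had an unadjusted p below 0.05. There Orm1 differed by -1.12 (-2.31 to 0.07) at CuO PEG 2.5 and by -0.47 (-1.55 to 0.60) at CuO PEG 40.

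**Figure D4:**
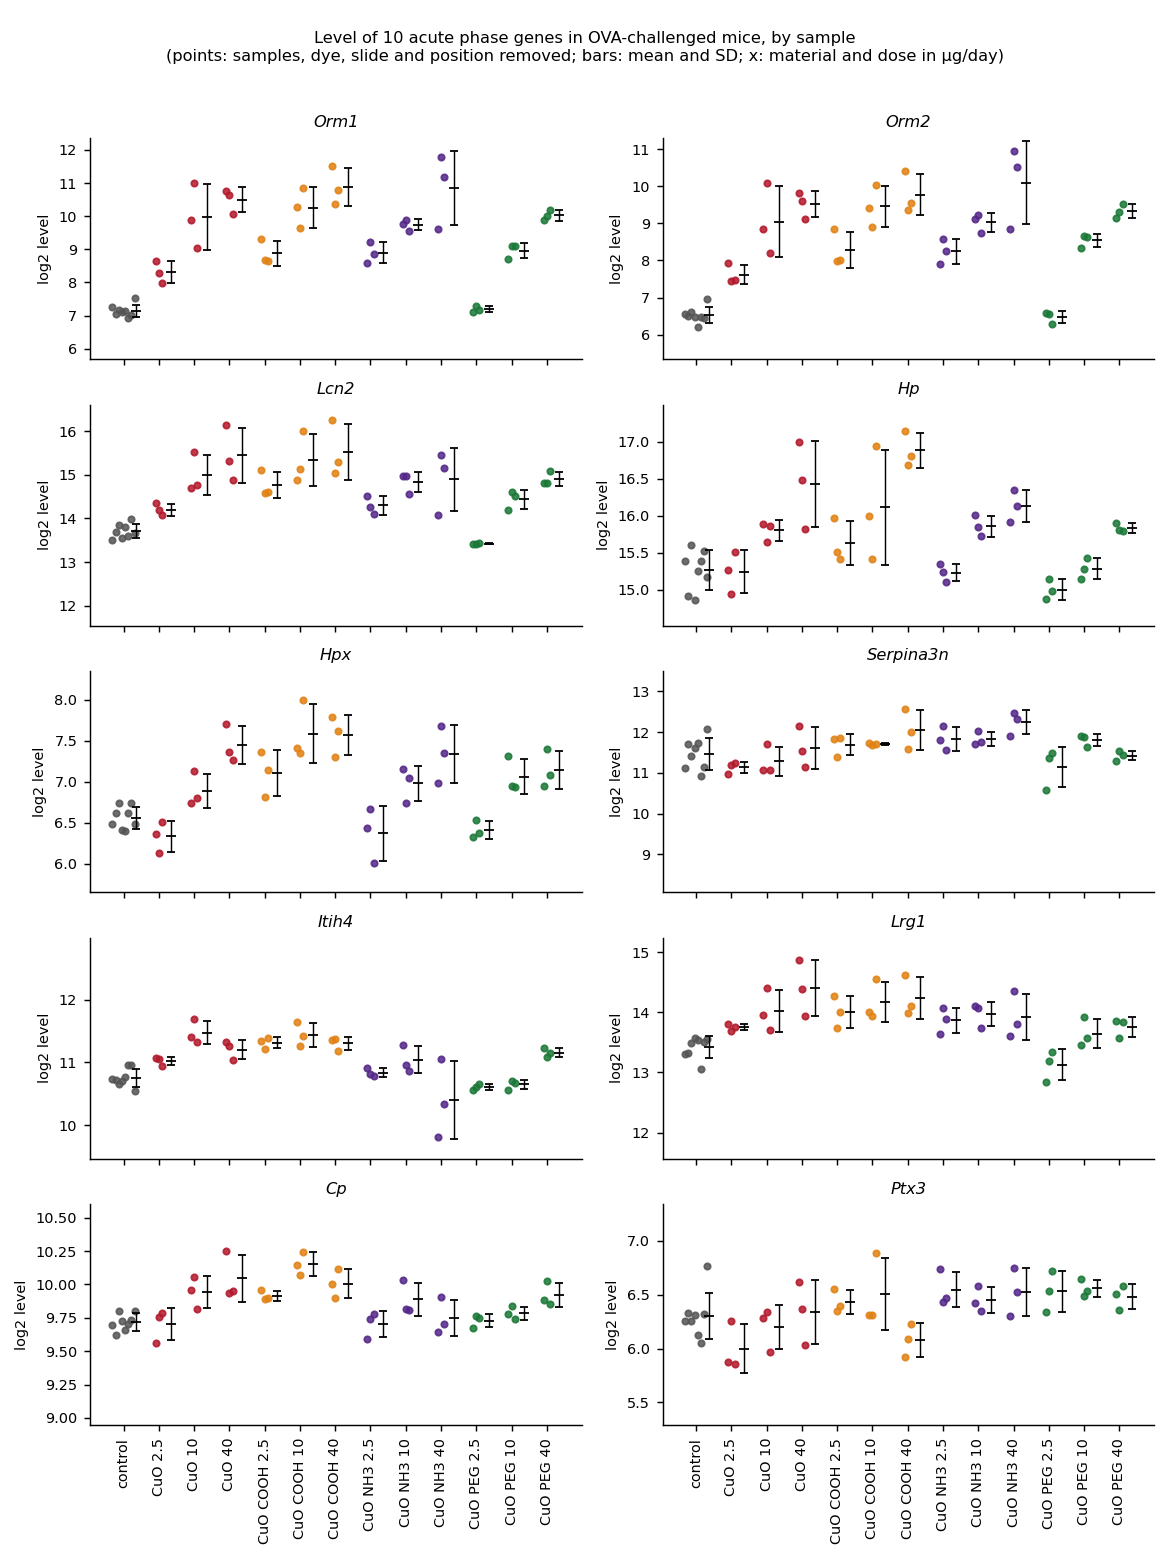
Log2 levels of the 10 members in OVA-challenged mice, drawn as for PBS-challenged mice and on the same vertical scale for each gene. OVA controls of Serpina3n lie between 10.93 and 12.07 and overlap the 3 samples of CuO 40, while Orm1 in the controls lies between 6.94 and 7.52, below the 10.07 to 10.77 of CuO 40.

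In OVA-challenged mice Orm1, Orm2 and Hp were again higher after exposure, while Serpina3n, Itih4, Cp and Ptx3 were called in no comparison. Against the 8 OVA controls, CuO called 0 members at 2.5 (0%), 2 at 10 (0.21%) and 5 at 40 (0.972%). CuO COOH called 0 (0.0175%), 4 (0.411%) and 5 (2.22%), CuO NH3 0 (0.49%), 2 (1.38%) and 3 (2.05%), and CuO PEG 0 (0%), 0 (0%) and 2 (0.394%). That made 23 of 120 pairs, all of them higher, against 0.679% of such pairs over all genes, and 55 had an unadjusted p below 0.05. Orm1 and Orm2 were called in 7 comparisons each, Hp in 4, Lcn2 and Hpx in 2 and Lrg1 in 1. The uncalled Cp had a lowest adjusted p of 0.0297, but its highest log2 fold change of 0.55 was under the fold limit. Replicates 1 and 3 of OVA-challenged CuO 2.5 were alone on their arrays, so that its values rest on 1 sample.

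Orm1 had 6.94 to 7.52 (median 7.12) in OVA controls. It had 10.77, 10.64 and 10.07 after CuO 40 (26.1-fold, 4.70 ± 0.70, adjusted p = 0.00102), and 11.50, 10.36 and 10.79 after CuO COOH 40 (12.4-fold). It had 9.61, 11.77 and 11.19 after CuO NH3 40 (10.9-fold) and 9.88, 10.00 and 10.19 after CuO PEG 40 (6.58-fold, adjusted p = 0.0316). None of these groups overlapped the controls. Hp rose 3.90-fold after CuO 40 (1.96 ± 0.24, adjusted p = 9.72e-05; 1.17 with slide) and 3.33-fold after CuO COOH 40. Lcn2, already higher in OVA controls, had 16.14, 15.32 and 14.89 after CuO 40 and rose 4.72-fold (2.24 ± 0.54, adjusted p = 0.0327). Within slides, 22 of the 23 calls had the same direction on every slide, the exception being Hp after CuO COOH 10. Of the 23 calls, 4 were kept whichever sample was left out. Without OVA-challenged CuO 40 replicate 2, 4 of its 5 calls were lost, and without OVA control replicate 1 or CuO COOH 40 replicate 1, 4 of the 5 of CuO COOH 40. All calls at CuO 10, CuO COOH 10, CuO NH3 10 and CuO PEG 40 were lost without 1 or another sample of the exposed group. Between 40 and 2.5 only Hp after CuO NH3 was called higher (1.09, adjusted p = 0.019, 0.258% of all genes), and that call was lost without CuO NH3 2.5 replicate 2, without CuO NH3 40 replicate 1 or without CuO NH3 40 replicate 2. CuO (0.0219%), CuO COOH (0.00875%) and CuO PEG (0.0131%) gave 0 calls there.

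The exposure effect on Serpina3n differed between the challenges. The effect of 40 against controls under OVA, less the same effect under PBS, was tested for each material. For CuO the effect was 3.87 with PBS and 0.98 with OVA, a difference of -2.89 ± 0.48 (adjusted p = 0.00219), with 1 of 10 members called (0.989% of all genes lower). For CuO COOH it was -2.55 ± 0.50 (adjusted p = 0.0091) and Lrg1 was called too (-1.93 ± 0.45, adjusted p = 0.0331), 2 of 10 members against 1.01%. For CuO NH3 it was -2.47 ± 0.43 (adjusted p = 0.00155), 1 of 10 against 1.4%. For CuO PEG it was -1.50 ± 0.51 and not called (adjusted p = 0.787), with no member and 0% of all genes called. All 4 differences share the controls. Serpina3n had 12.16, 11.54 and 11.14 after OVA-challenged CuO 40 and 11.91, 12.78 and 12.11 after PBS-challenged CuO 40, which overlap, whereas the 2 control groups did not. Orm1 differed by -1.35 ± 0.78 for CuO and was not called (adjusted p = 0.693). The Serpina3n call for CuO was lost without OVA-challenged CuO 40 replicate 2 (-2.38, adjusted p = 0.163), that for CuO NH3 without OVA-challenged CuO NH3 40 replicate 1 (-1.95, adjusted p = 0.0505), and both calls for CuO COOH without PBS control replicate 1 (Serpina3n -2.63, adjusted p = 0.166) or PBS-challenged CuO COOH 40 replicate 1. The Lrg1 call was lost in 6 of 21 fits that left out 1 sample. Of the 4 calls, 0 were kept in every such fit.

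**Figure D5:**
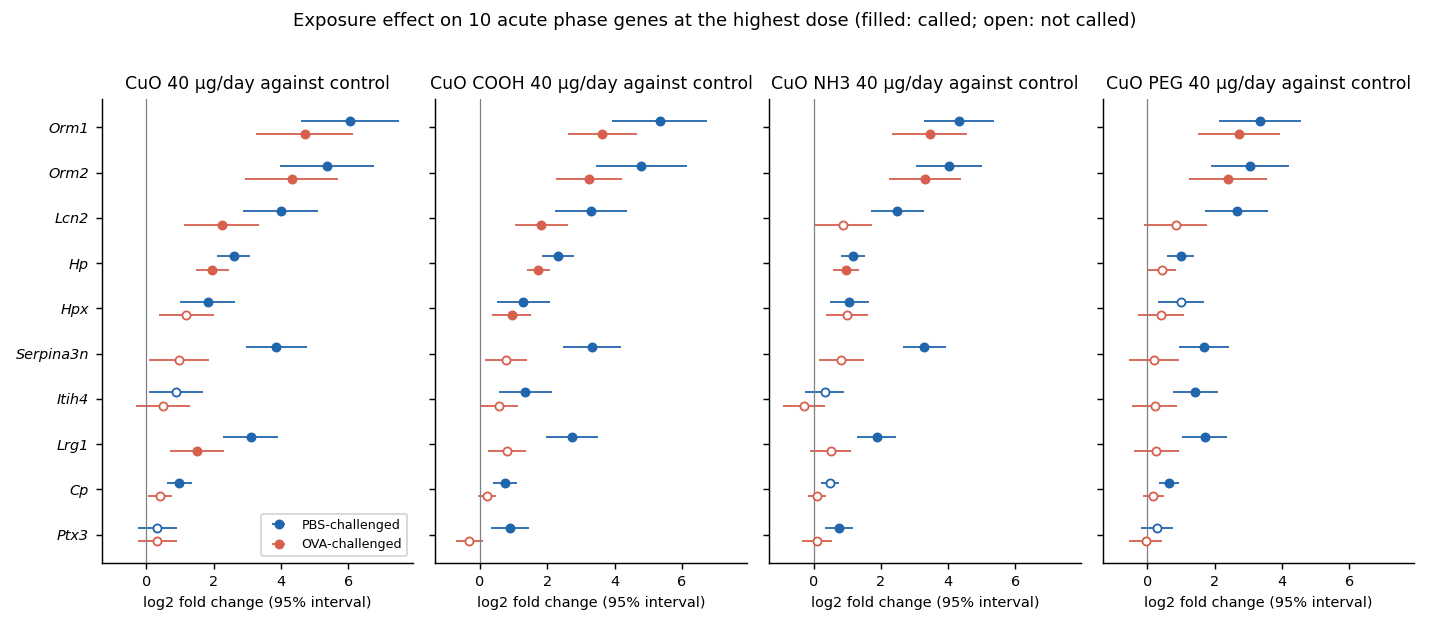
Log2 fold change with 95% interval of each member after 40 of each material against the controls of the same challenge, in PBS-challenged and OVA-challenged mice, filled where called. Serpina3n after CuO stands at 3.87 with PBS and at 0.98 with OVA, while Orm1 stands at 6.06 and 4.70.

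Other genes of the response moved in the same comparison. After CuO 40 in PBS-challenged mice (14% of all genes called in either direction), 10 of 20 cytokine and signalling genes were called higher and 0 lower, with a median log2 fold change of 0.81 against 0.01 over all genes. The inducer Il6 rose by 2.53, Il1b by 2.04 and Il11 by 1.74. Of 28 measured other positive acute phase genes, 13 were higher and 1 lower, the serum amyloid genes Saa3 (6.16) and Saa1 (5.73) and the metallothionein Mt2 (4.14) leading. Of 16 receptors and partners of the members, 7 were higher and 2 lower, with the haem-degrading enzyme Hmox1 at 3.96, the iron-storing Fth1 at 1.73 and Tnfaip6 at 1.15. Of 9 negative acute phase genes, 1 was called, Ahsg, and it was higher (1.35). After CuO PEG 40 the same lists gave 2 of 20, 6 of 28, 2 of 16 and 0 of 9 genes higher.

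Neutrophil markers moved with some of these groups. After CuO 40 in PBS-challenged mice 5 of 11 measured markers were called higher and 1 lower, among them Ltf (3.64), Mmp8 (3.44) and Cxcr2 (2.39), and their summed intensity was 83440 to 101600 against 69270 to 91850 in controls. After CuO NH3 40 6 were higher and 1 lower, after CuO COOH 40 2 were higher (66610 to 74900), and after CuO PEG 40 0 were called (79840 to 83060). By mean level, Csf3r was lower after CuO 40 (14.82) than in PBS controls (15.47). Retnlg (11.17 and 11.26), Elane (8.94 and 8.94), Ngp (5.87 and 5.85) and Mpo (6.37 and 6.23) lay close to the controls. S100a8 (13.78 and 12.57), S100a9 (15.25 and 14.34) and Camp (7.83 and 7.15) were higher. After CuO PEG 40 the uncalled Mmp8 had a mean level of 8.24 ± 0.13 (SD) against 7.25 ± 0.08 in PBS controls. Cxcr2 had 8.33 ± 0.34 against 7.67 ± 0.14, whereas Ltf (10.38 and 10.31) and Csf3r (15.44 and 15.47) lay close to the controls. None of the neutrophil markers was at 0, and the granule genes Ngp and Mpo were well above background in 32 and 64 of 89 samples. Lcn2 and Ltf are both granule genes of neutrophils. The part of neutrophils in the rises was not tested. Of 8 hepatocyte markers 1 was higher (Ahsg) and 1 lower (Fabp1, -4.88), and their sum was 1844 to 2004 after CuO 40 and 2549 to 3301 in controls.

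Over the 26 group means, the members differed in the genes most like them. Clec4d and Cd14, receptors of myeloid cells, ran closest to Orm1 (Pearson r = 0.94 and 0.93) and to Orm2. Tjp3 and the chemokine Cxcl1 ran closest to Lcn2 (0.94 and 0.92), and Pdpn and Clu to Hp (0.95 and 0.92). Serpina3n ran with Dctpp1, Tk1 and Cdca8 (each 0.98), of which the latter pair act in DNA synthesis and cell division. Itih4 ran with the mucin Muc1 (0.90), and Lrg1 with Itga7 (0.97). Among the members, Serpina3n and Itih4 had r = 0.05. Group means share arrays and slides, so these values are descriptions without a test. Ordered by level, Orm1, Orm2, Hp, Hpx and Lrg1 were highest after CuO 40 in PBS-challenged mice, whereas Itih4 was highest after CuO 10 (12.31 ± 0.50) and Serpina3n after CuO NH3 40 (12.57 ± 0.50), the latter overlapping CuO 40 (12.27 ± 0.46). Orm1, Orm2, Lcn2, Hpx, Itih4 and Lrg1 were lowest after CuO PEG 2.5 in PBS-challenged mice, where none of them differed from PBS controls by the test.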

How the data were processed

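Lung RNA of 89 samples was hybridised to 46 two-colour Agilent mouse arrays on 6 slides, 43 arrays holding 2 samples and 3 holding 1. The deposited files hold scanner intensity (median foreground per spot and dye) made by the authors with Agilent Feature Extraction 12.0.2.2, per the file headers, and not normalised. A deposited table of log2 values ordered the spots as the scanner channel did in 89 of 89 samples and served as an alternative. The labels also name limma, without its version. Groups and replicate numbers came from the sample labels.

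Here log2 median foreground was taken for each sample's own dye without background subtraction, 3671 control spots were left out, spots marked as outliers (mean 0.1605%) were set to missing, and the 89 samples were quantile-normalised. Spots were averaged to probes and probes to 22911 genes through RefSeq (GRCm38.p6) by unversioned accession. R 4.3.3 with limma 3.58.1 and the package data.table (version 1.17.8) were used, with figures from Python 3.11.15 and matplotlib 3.10.9. One model of all 26 groups with moderated statistics (lmFit, eBayes) carried dye and array as terms for comparisons with controls, between doses and between challenges (17 residual degrees of freedom), and dye, slide and position for modified against core CuO (50). Of 22911 genes, 22851 had no missing value and were tested. The tests were tried on simulated data. Replicates were pools of 2 RNA samples, and no source says that they came from separate experiments, so the p-values measure the spread between pools. The median foreground intensity over samples was 86 (62 to 130) for Cy3 and 97 (70 to 203) for Cy5, that is 2.90 and 1.79 times background, with a median of 60.5% and 58.8% of spots well above background. The number of arrays limits the precision.

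The members, the other gene lists and the rule for naming genes were chosen with earlier results of these data known. Every member is named, and of each other list the 3 called genes with the largest change after CuO 40 in PBS-challenged mice. Alternatives were another background correction, scaling, filter, probe rule, batch term, the replicate block, controls of the same 3 slides, and each replicate left out. Same-numbered samples of different groups deviated together weakly, with a median r of 0.07 over 984 pairs, 402 of them over 0.1. For other numbers the median was -0.03 over 2805 pairs, 489 of them over 0.1. For samples on the same slide but another array it was 0.13 over 566 pairs. Replicate numbers were not taken as pairs in the main models and were tried as a block. The treatment text and the descriptions give the dose in different mass units, and the unit here is that of the descriptions.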

Additional observations from a re-analysis of the deposited data

Results flagged for a closer look

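Among 40 combinations of a member with a group of 4 or more samples, 4 held a sample that lay far from the rest of its group, a test that by its level flags about 1 in 20 by chance. Lcn2 in PBS-challenged CuO PEG 10 replicate 4 was lowest at 13.58, the other 3 lying between 14.12 and 14.21. Itih4 in PBS control replicate 6 was lowest at 10.20, the others lying between 10.43 and 10.56. Lrg1 in PBS-challenged CuO NH3 10 replicate 3 was highest at 14.13, the others lying between 13.92 and 13.94. Ptx3 in OVA control replicate 8 was highest at 6.76, the others lying between 6.05 and 6.33.

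A test of the difference between challenges at 40 was passed by Serpina3n for CuO (-2.89), CuO COOH (-2.55) and CuO NH3 (-2.47) and by Lrg1 for CuO COOH (-1.93), each effect being smaller in OVA-challenged than in PBS-challenged mice.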

How the results depend on the processing

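Of the 136 called pairs of member and comparison, none changed direction under any of the alternatives other than leaving out samples. Scaling to the 75th percentile lost 41 of them, and moved the median of all genes by up to 0.79 (log2), by over 0.1 in 36 of 55 comparisons. It left 7 (PBS) and 0 (OVA) calls between doses, and 9 after exposure with OVA. Loess with Aquantile left 0 calls between doses in OVA-challenged mice. The array as a random block gave more calls: 15 (OVA) and 21 (PBS) between doses, 47 after exposure in OVA-challenged mice, 10 for the difference between challenges and 2 between materials in OVA-challenged mice. Exchanging the batch terms gave 17 (OVA) and 20 (PBS) between doses, 39 after exposure in OVA-challenged mice, 10 for the difference between challenges and 13 between materials in PBS-challenged mice. The replicate block, used in place of array or slide, gave 15 (OVA) and 22 (PBS) between doses, 47 after exposure in OVA-challenged mice, 10 for the difference between challenges and 4 between materials in OVA-challenged mice, and turned Itih4 at OVA-challenged CuO NH3 2.5 from an uncalled -0.13 to 0.64. The cause of these shifts was not tested.

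With 1 replicate left out, calls ranged from 65 to 73 after exposure with PBS, 17 to 25 with OVA, 1 to 3 for OVA challenge alone, 2 to 8 for the difference between challenges, 17 to 24 and 0 to 1 between materials with PBS and OVA, and 5 to 13 and 0 to 1 between doses with PBS and OVA. OVA-challenged CuO 2.5 could not be fitted without replicate 2. Low signal limits Ptx3.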
